A study of Mus musculus with 26 samples.

Results

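The Serpinb genes followed here encode intracellular protease inhibitors of the serpin family: Serpinb9, Serpinb9b, Serpinb6a, Serpinb6b, Serpinb8, Serpinb1a, Serpinb2 and Serpinb10. A probe set, a group of probes read together as 1 value, was taken as a member if the array annotation gave it a single gene symbol and that symbol, or an older synonym of it, belonged to one of these genes. This gave 46 of 65535 probe sets and 7 of the 5109 genes that such single-symbol probe sets cover. Serpinb1a, an inhibitor of neutrophil elastase, had none and was not analysed here.

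Clade B serpins lack a classical secretion signal and act mostly inside the cell. A serpin offers an exposed loop as bait, and a protease that cuts the loop is trapped in a covalent complex. Serpinb9 is the mouse counterpart of human PI-9, which inhibits granzyme B, the protease that cytotoxic lymphocytes deliver through perforin, and cells that carry it are better protected from that attack.

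All cells were CD31+/CD146+ endothelial cells sorted from digested tissue of female mice bearing a tumour, and interferon gamma (IFNγ) was the agent compared. MCA313 tumours grew in transgenic PIG-Pdgfb-Cre-IFNγ-del mice aged 4 to 6 months, in which Cre under the Pdgfb promoter leaves the IFNγ receptor on endothelial cells only; tumour endothelium was taken before induction (0 h, 3 arrays) and 24 h or 48 h after the tumour cells were induced to make IFNγ (2 arrays at each time). The J558L model used Rag-/- mice of the same age that carry the receptor on all cells, and its tumour cells make a fusion of IFNγ and GFP when induced. From it came tumour endothelium at 0 h (2 arrays) and 24 h (3 arrays), and kidney endothelium at the same times (3 arrays each). 16.113 tumours grew in Rag-/- mice aged 3 to 4 months and were taken at 120 h of T cell therapy, with T cells either able to produce IFNγ (competent, 3 arrays) or derived from IFNγ-deficient donors (deficient, 5 arrays), so this model has no arm without T cells. In it, a rise or fall is that of competent relative to deficient arrays. The labels number the replicates without saying whether each came from its own animal, and the p-values then measure only the spread between these samples, which may be technical.

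Values are log2 expression values, on which 1 unit is a doubling. The arrays fall into 4 separately normalized sets (MCA313, J558L tumour, J558L kidney and 16.113), so levels were compared only within a set. The array median, the median of all probe sets of an array, was 5.78 to 5.88 for MCA313, 6.42 to 6.46 for J558L tumour, 6.33 to 6.40 for J558L kidney and 5.62 to 5.79 for 16.113. A probe set was tested if it exceeded the array median in at least 2 arrays, which 28 of the 46 member probe sets did: all 6 of Serpinb9, 5 of 6 of Serpinb6b, 6 of 8 of Serpinb9b, 7 of 11 of Serpinb8, 4 of 9 of Serpinb2 and none of the 5 of Serpinb10 or the 1 of Serpinb6a. At the gene level, where the brightest probe set stands for the gene, 5 members were among the 4386 genes tested with limma and called at an adjusted p under 0.05. Pecam1, which encodes CD31, had group means of 13.51 to 13.95, and the 6 measured endothelial markers averaged 11.85 to 13.15 per array. Leukocyte and myeloid markers averaged 6.71 to 8.20 per array, T and NK cell markers 5.90 to 7.55, and none of the 14 and 7 tested genes of these lists was called in any of the 6 comparisons within a set.

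RefSeq promoters help to place Serpinb9 beside its neighbours, since these closely related genes sit together on chromosome 13. The 250 bases before the annotated start are shown for the member called most often (Serpinb9), for its nearest relative (Serpinb9b) and for the member whose values followed it most closely (Serpinb6b). They lie at chr13:33004291-33004540, chr13:33027164-33027413 and chr13:32965011-32965260, all on the plus strand of GRCm38.p6. Capitals mark a match to the core of the interferon-stimulated response element.
Serpinb9: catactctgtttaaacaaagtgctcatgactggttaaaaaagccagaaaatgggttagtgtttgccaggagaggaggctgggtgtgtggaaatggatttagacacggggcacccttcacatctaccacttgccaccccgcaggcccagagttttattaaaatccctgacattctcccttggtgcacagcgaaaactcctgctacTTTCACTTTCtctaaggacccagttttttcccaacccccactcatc
Serpinb9b: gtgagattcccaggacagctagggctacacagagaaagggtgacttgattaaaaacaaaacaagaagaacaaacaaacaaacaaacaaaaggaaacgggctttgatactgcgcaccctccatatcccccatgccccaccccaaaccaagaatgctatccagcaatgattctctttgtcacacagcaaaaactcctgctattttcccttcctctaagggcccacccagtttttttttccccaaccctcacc
Serpinb6b: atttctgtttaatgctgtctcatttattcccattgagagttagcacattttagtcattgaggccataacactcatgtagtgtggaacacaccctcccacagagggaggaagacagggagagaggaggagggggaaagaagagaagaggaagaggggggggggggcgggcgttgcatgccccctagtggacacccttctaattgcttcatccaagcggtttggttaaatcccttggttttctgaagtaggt
The core was searched by its usual consensus, and the IFNγ-activated site as TTCNNNGAA, both on either strand. Of 32851 windows of this length in the RefSeq table, 2.98% held the first and 7.02% the second. The Serpinb9 window held 1 core match, 46 to 37 bases before the start, and no IFNγ-activated site, while the windows of Serpinb9b and Serpinb6b held neither. Over 225 aligned bases the Serpinb9 and Serpinb9b windows were identical at 154, or 68.4%. The stretch around the match reads as follows in both genes, with the match and its aligned counterpart in capitals.
Serpinb9: ctcctgctacTTTCACTTTCtctaaggacc
Serpinb9b: ctcctgctatTTTCCCTTCCtctaagggcc
Within those 10 positions 8 were identical. In 9 windows of 7 members the core was found in 2 genes (Serpinb9 and 1 of the 2 Serpinb6a windows) and the IFNγ-activated site in 2 genes (Serpinb6a and 1 of the 2 Serpinb2 windows); the windows of Serpinb8 and Serpinb10 held neither. A match is a description of letters in this window.

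Serpinb9 was higher in every IFNγ-exposed array than in every control array of its set, in all 5 comparisons with a control, and it rose past the test in kidney endothelium (2.31-fold) and in 16.113 tumour endothelium (2.92-fold). In J558L kidney endothelium its brightest probe set read 11.26, 11.21 and 11.18 at 0 h and 12.42, 12.36 and 12.50 at 24 h. The groups did not overlap, and the change was 1.21 ± 0.31 (log2 ± SE, n = 3 and 3, 95% interval 0.56 to 1.86, adjusted p = 0.0367). Of all genes, 3.17% were called and 1.64% rose in this comparison, and 10.7% had all 24 h arrays above all 0 h arrays. Leaving out any 1 of the 6 kidney arrays ended this call, with changes of 1.17 to 1.24 and adjusted p of 0.0823 to 0.127. Leukocyte and myeloid markers averaged 7.25 to 7.39 per array at 0 h and 7.45 to 7.47 at 24 h, and their part in the result was not tested. In sorted bulk samples, fewer cells of a type and less RNA per cell cannot be told apart.

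In 16.113 tumours the 5 arrays with deficient T cells read 9.78, 9.78, 9.60, 9.25 and 10.37 for Serpinb9, and the 3 with competent T cells read 11.56, 11.30 and 11.04. The lowest competent array stood above the highest deficient one, and Serpinb9 rose by 1.54 ± 0.28 (95% interval 0.96 to 2.12, adjusted p = 0.00179). In this comparison 7.36% of all genes were called, 2.55% rose and 4.81% fell, and 3.9% had all competent arrays above all deficient ones. T and NK cell markers averaged 6.13 to 6.44 per array with deficient and 6.23 to 6.97 with competent T cells, ranges that overlap; their part in the result was not tested.

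In MCA313 tumours the 3 uninduced arrays were spread widely, at 10.24, 12.08 and 11.58. The 24 h arrays read 12.44 and 12.56, and the 48 h arrays 12.42 and 12.34. All 4 induced arrays lay above all 3 controls, and the control labelled replicate 1 was the lowest by more than 1 log2 unit. The change was 1.20 ± 0.35 at 24 h (adjusted p = 0.123) and 1.08 ± 0.35 at 48 h (adjusted p = 0.154), 2 comparisons that share their controls and of which neither passed the test. Of all genes, 0.684% were called at 24 h and 1.37% at 48 h, and 14.1% and 15% had induced arrays all above the controls. Between 48 h and 24 h Serpinb9 differed by -0.12 (adjusted p = 0.99952), where 0.0684% of all genes were called.

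In J558L tumours Serpinb9 read 11.55 and 11.59 at 0 h and 12.85, 12.83 and 12.86 at 24 h. These replicates lay closer together than those of any other set, and the change of 1.28 ± 0.35 (2.43-fold) did not pass the test when all 9 groups shared the spread (adjusted p = 0.116). In this comparison 0.547% of all genes were called, and 13.8% had all 24 h arrays above both controls. With the J558L tumour arrays fitted alone, Serpinb9 passed (adjusted p = 0.0374), as did Serpinb6b.

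The size of the Serpinb9 response did not differ past the test between models. The J558L tumour response exceeded the kidney response by 0.07 (95% interval -0.90 to 1.04), and the MCA313 response at 24 h differed from the J558L tumour response by -0.08 (-1.10 to 0.95). The 16.113 difference exceeded the J558L tumour response by 0.26 (-0.66 to 1.19) at the brightest probe set. The other 5 of the 6 Serpinb9 probe sets went the other way, with a median of -0.43 over all 6, so the sign is uncertain. No member passed any of these 3 tests, in which 0.0228%, 0% and 0% of all genes were called, and the number of members at an unadjusted p under 0.05 was 0, 0 and 1, against 210, 131 and 275 of all 4386 genes.

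**Figure D1:**
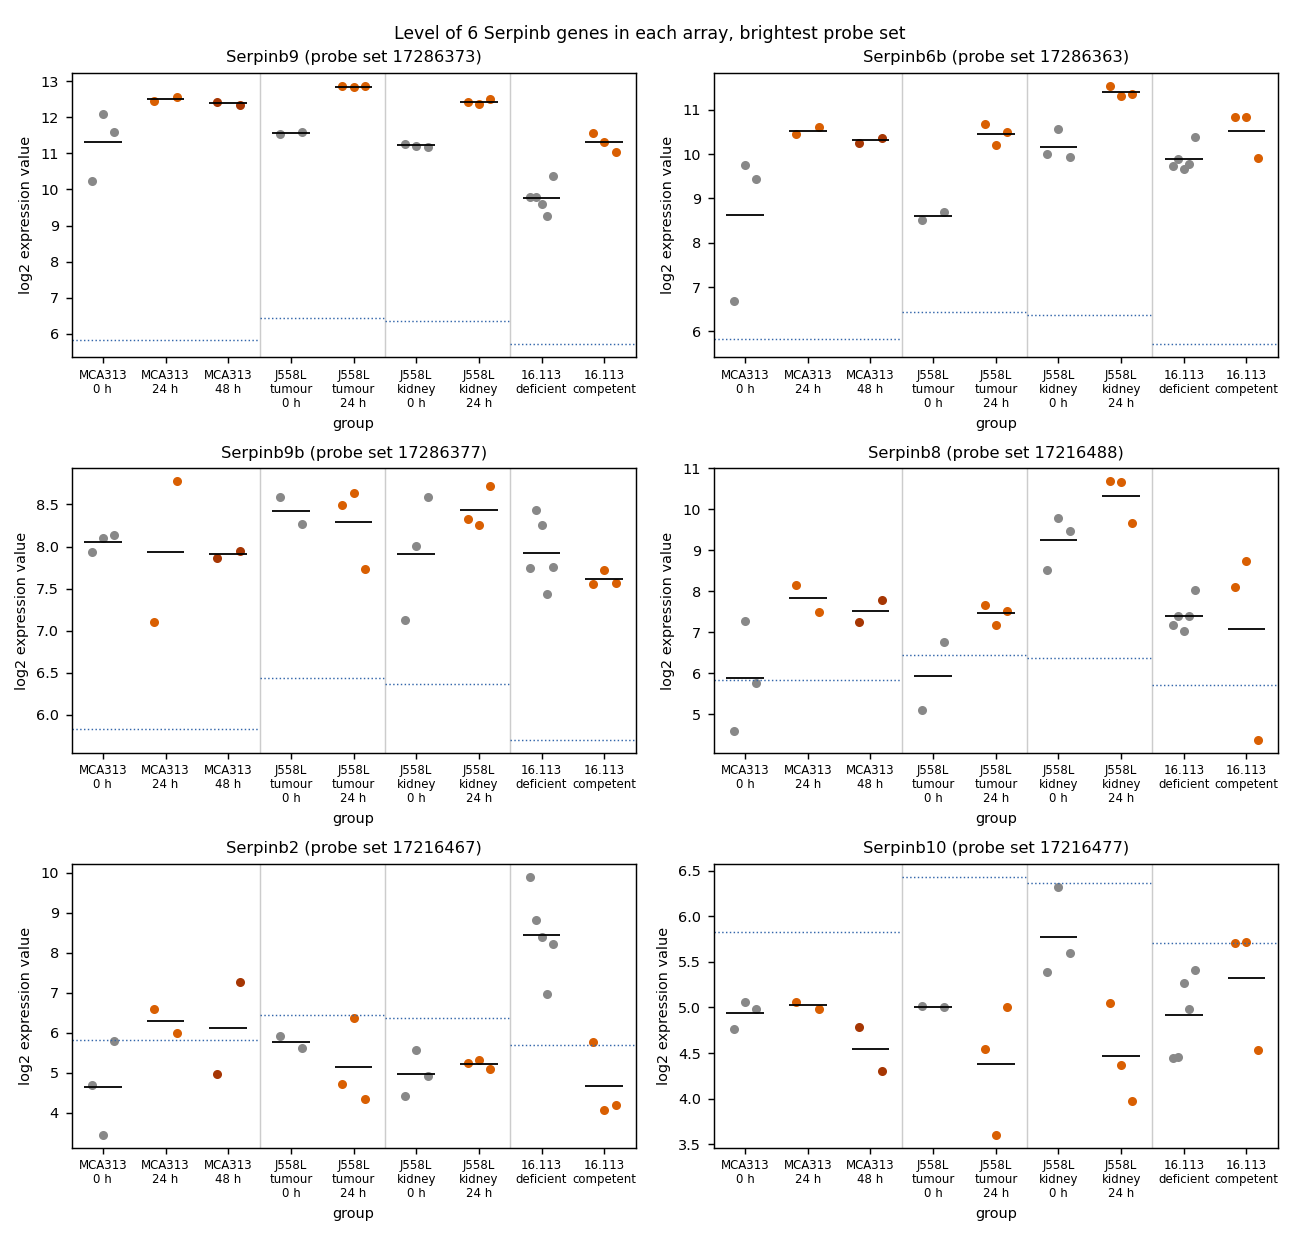
The log2 level (y axis) of 6 Serpinb genes in each of the 26 arrays, at the brightest probe set, by group (x axis); bars are group means, dotted lines the array medians, and levels are comparable only within a set. Serpinb9 lies higher in every IFNγ-exposed array than in every control array of its set, and within the 16.113 set Serpinb2 lies higher in all 5 arrays with deficient T cells than in the 3 with competent ones.

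The single probe sets of Serpinb9, which read different parts of the gene, mostly moved the same way. All 6 were higher at 24 h in MCA313 tumours (median 1.25), in J558L tumours (median 1.55) and in kidney (median 1.45), and 5 of 6 were higher at 48 h and with competent T cells. In the fit of all 45204 tested probe sets, 3 Serpinb9 probe sets rose in kidney, by 2.07, 1.88 and 1.31 (adjusted p = 0.0161, 0.0313 and 0.0112), against 0.845% of all probe sets that rose and 1.42% called. The brightest one, called at the gene level, missed the threshold there (adjusted p = 0.0788). In 16.113 tumours 4 rose, by 1.68, 1.49, 1.54 and 0.95 (adjusted p = 0.0195, 0.0375, 0.00574 and 0.0263), against 1.36% of all probe sets that rose and 3.76% called. No member probe set was called in the MCA313 comparisons at 24 h and 48 h or in J558L tumours, where 0.257%, 0.405% and 0.164% of all probe sets were.

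**Figure D2:**
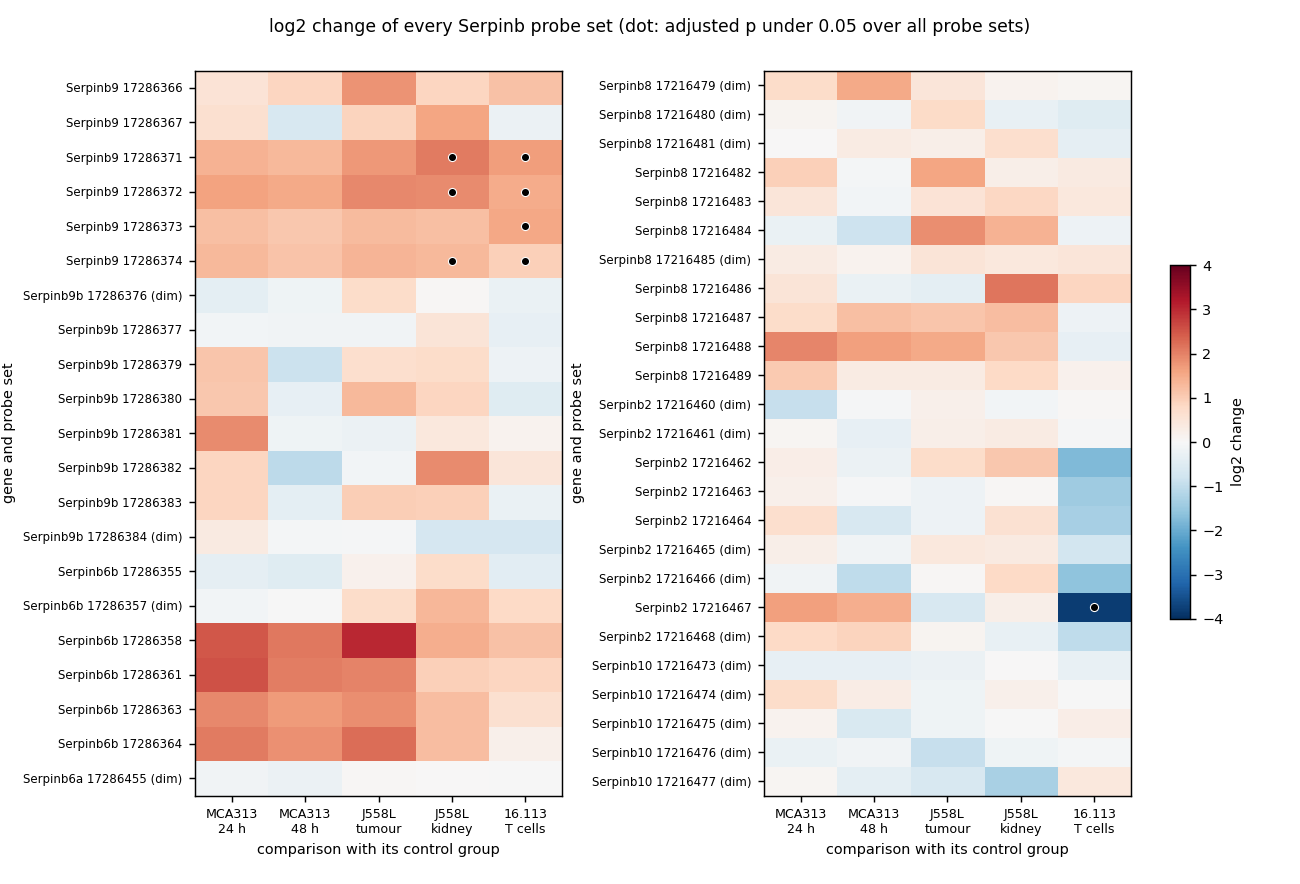
The log2 change of every member probe set (rows, by gene) in each comparison (columns), with colour giving the change and a dot an adjusted p under 0.05 over all tested probe sets. The dots fall on Serpinb9 in kidney (3) and 16.113 (4) and on 1 Serpinb2 probe set in 16.113.

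Serpinb6b belongs to the same cluster as Serpinb9 and is a relative of Serpinb6a, an inhibitor of cathepsin G. Its values were higher with IFNγ in the MCA313 and J558L comparisons, but no call was made. In J558L tumours it read 8.51 and 8.69 at 0 h and 10.68, 10.21 and 10.50 at 24 h, without overlap. The change of 1.86 ± 0.55 (95% interval 0.72 to 3.01) had an adjusted p of 0.168 with the shared spread and 0.0412 with that set fitted alone. In kidney it read 9.9996, 10.56 and 9.92 at 0 h and 11.53, 11.30 and 11.35 at 24 h, again without overlap (1.23 ± 0.49, adjusted p = 0.236). All 24 h arrays lay above all 0 h arrays in 13.8% of all genes in J558L tumours and in 10.7% in kidney.

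MCA313 controls read 6.67, 9.74 and 9.43 for Serpinb6b, against 10.44 and 10.61 at 24 h and 10.26 and 10.37 at 48 h. The control labelled replicate 1 stood about 3 units below the other controls, and all induced arrays lay above all controls. The change was 1.91 ± 0.55 at 24 h (adjusted p = 0.122) and 1.70 ± 0.55 at 48 h (adjusted p = 0.155). All induced arrays lay above all controls in 14.1% of all genes at 24 h and in 15% at 48 h. Without the control labelled replicate 2, Serpinb6b passed at 24 h (2.47, adjusted p = 0.0278) and at 48 h (2.26, adjusted p = 0.0364), and so did Serpinb9 (1.59 and 1.47, adjusted p = 0.0208 and 0.0280). Without the control labelled replicate 1 the values were smaller, at 0.94 and 0.73 for Serpinb6b and 0.67 and 0.55 for Serpinb9, so these sizes rest on that array.

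In 16.113 tumours Serpinb6b read 9.72, 9.88, 9.66, 9.78 and 10.38 with deficient and 10.84, 10.83 and 9.91 with competent T cells. The groups overlapped, since the third competent array lay within the deficient range, and the difference was 0.64 ± 0.44 (95% interval -0.27 to 1.56, adjusted p = 0.425). Among its 6 probe sets, 6 were higher at 24 h in both J558L tissues, 5 with competent T cells and 4 at each MCA313 time. The largest single change, 3.02 in J558L tumours, did not pass the test over probe sets (adjusted p = 0.249).

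**Figure D3:**
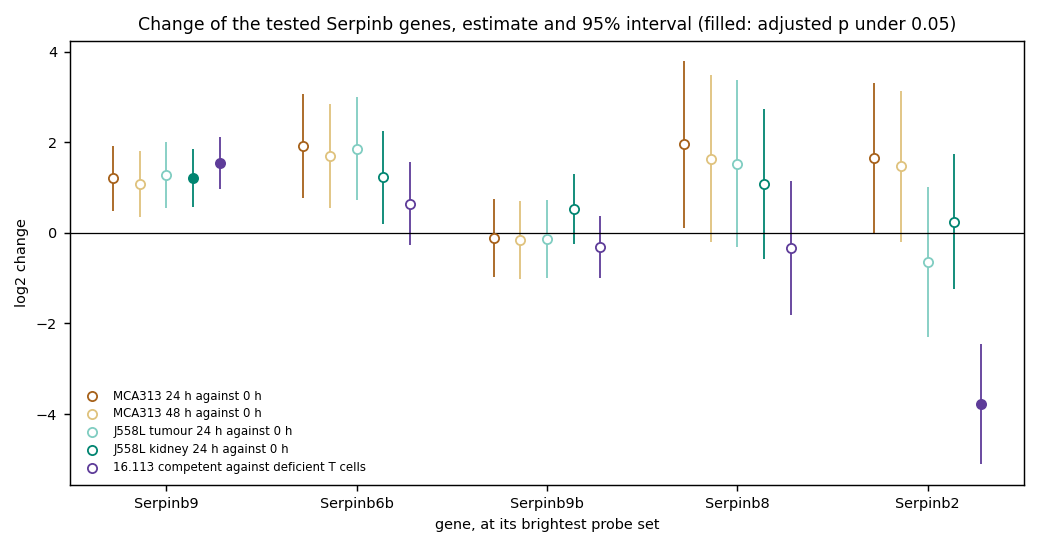
The log2 change (y axis) of the 5 tested genes (x axis) in each comparison, as an estimate with its 95% interval; filled points have an adjusted p under 0.05. The filled points are Serpinb9 in kidney (1.21) and 16.113 (1.54) and Serpinb2 in 16.113 (-3.78).

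Serpinb8, whose human counterpart inhibits the proprotein convertase furin, was not called in any comparison. In J558L tumours it read 5.11 and 6.75 at 0 h and 7.67, 7.19 and 7.52 at 24 h, and in MCA313 tumours 4.59, 7.27 and 5.77 without IFNγ and 8.16 and 7.50 at 24 h. Neither pair of groups overlapped, and 13.8% and 14.1% of all genes likewise had all 24 h arrays above all controls. The Serpinb8 controls were spread over more than 1 unit and partly lay below the array median. The changes were 1.53 ± 0.88 (adjusted p = 0.781) and 1.95 ± 0.88 (adjusted p = 0.423), and the 48 h arrays, at 7.24 and 7.78, overlapped with the controls (1.64 ± 0.88, adjusted p = 0.474).

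Kidney endothelium read 8.51, 9.80 and 9.48 for Serpinb8 at 0 h and 10.69, 10.67 and 9.66 at 24 h, which overlapped (1.08 ± 0.79, adjusted p = 0.631). In 16.113 tumours the deficient arrays read 7.17, 7.40, 7.03, 7.39 and 8.03 and the competent ones 8.10, 8.73 and 4.38. Of the competent arrays 2 stood above all deficient ones and the third far below them, and the difference was -0.33 ± 0.71 (adjusted p = 0.838). Without that low array the sign turned (1.01, adjusted p = 0.357).

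Serpinb9b, the nearest relative of Serpinb9, was measured above the array median in every group and gave no call. Its brightest probe set read 8.59 and 8.27 at 0 h and 8.50, 8.63 and 7.74 at 24 h in J558L tumours, and 7.13, 8.01 and 8.58 against 8.33, 8.25 and 8.72 in kidney. In MCA313 tumours it read 7.93, 8.10 and 8.14 without IFNγ, 7.11 and 8.77 at 24 h and 7.87 and 7.95 at 48 h. In 16.113 tumours it read 7.75, 8.44, 8.26, 7.44 and 7.76 with deficient and 7.56, 7.72 and 7.57 with competent T cells.

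Exposed and control arrays of Serpinb9b overlapped in all 5 comparisons, and the changes lay between -0.31 ± 0.33 (16.113, 95% interval -1.002 to 0.37) and 0.53 ± 0.37 (kidney, -0.24 to 1.29). In J558L tumours the interval was -0.999 to 0.72. Its probe sets differed among themselves: 6 of 8 were higher at 24 h in MCA313 tumours and 0 of 8 at 48 h, and the largest change, 1.90 at both MCA313 24 h and kidney in different probe sets, did not pass the test (adjusted p = 0.328 and 0.117).

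Serpinb2, also known as plasminogen activator inhibitor type 2, inhibits urokinase and is strongly inducible in inflamed tissue. It was lower in 16.113 tumour endothelium with competent than with deficient T cells. As no arm lacked T cells, a fall with competent and a rise with deficient T cells cannot be told apart. Deficient arrays read 9.91, 8.81, 8.39, 6.97 and 8.21 and competent arrays 5.77, 4.07 and 4.18. All 5 deficient arrays stood above all 3 competent ones, and the difference was -3.78 ± 0.64 (95% interval -5.11 to -2.46, adjusted p = 0.00111). The competent arrays did not exceed the array median in any case, so the size of the difference is uncertain. In this comparison 5.79% of all genes had all competent arrays below all deficient ones.

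Serpinb2 exceeded the array median in 8 arrays, the 5 deficient ones and 3 MCA313 arrays after induction. Of its 9 probe sets 8 were lower with competent T cells, with a median of -1.32. The brightest differed by -3.78 in the fit over probe sets (adjusted p = 0.00266), where 2.4% of all probe sets were called lower. The other 3 tested ones differed by -1.78, -1.41 and -1.32 without passing (adjusted p = 0.164, 0.300 and 0.219). These 3 exceeded the array median in 5, 3 and 2 deficient and in 1, 1 and 0 competent arrays, and not outside 16.113. They entered the test mostly through the group where they read high, so their lower values with competent T cells are no separate support. With a gene's probe sets averaged, the difference was -1.30 and still passed (adjusted p = 0.00422). Lyz2, a myeloid lysozyme, averaged 9.39 with deficient and 8.23 with competent T cells (adjusted p = 0.338), and the 15 leukocyte and myeloid markers averaged 7.16 to 8.20 and 7.45 to 7.97 per array. Other markers of this list went both ways. Ptprc stood at 9.21 and 8.95, Fcer1g at 9.8 and 9.2, Fcgr3 at 9.0 and 8.6 and Cd300lf at 6.7 and 5.9. In the other direction, Cd48 stood at 5.99 and 6.52, Cd84 at 7.74 and 8.05, Ly9 at 7.9 and 8.2 and Cd300a at 7.3 and 7.6. The median change of the 14 tested ones was -0.087. The 7 fibroblast and mural markers averaged 8.67 to 8.89 per array with deficient and 8.37 to 9.02 with competent T cells; among them Dcn stood at 12.11 and 10.95 (adjusted p = 0.449) and Col1a1 at 10.66 and 10.99. The part of these in the result was not tested.

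**Figure D4:**
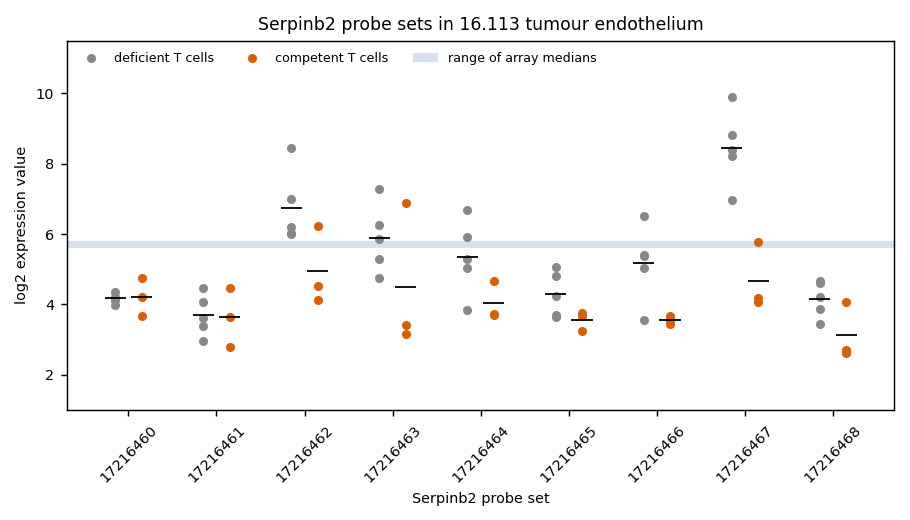
The log2 value (y axis) of each Serpinb2 probe set (x axis) in the 16.113 arrays, by T cell group, with bars at group means and a band over the range of array medians. At the brightest probe set the 5 deficient arrays read 6.97 to 9.91 and the 3 competent arrays 4.07 to 5.77.

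Elsewhere Serpinb2 lay near or below the array median. In MCA313 tumours it read 4.69, 3.45 and 5.80 without IFNγ, 6.60 and 5.99 at 24 h and 4.96 and 7.27 at 48 h. The 24 h arrays lay above the controls, as in 14.1% of all genes, and the 48 h arrays overlapped with them. The changes were 1.65 ± 0.80 (adjusted p = 0.464) and 1.47 ± 0.80 (adjusted p = 0.474). Its 9 probe sets had a median change of 0.23 at 24 h and -0.14 at 48 h, and with the probe sets averaged the changes were 0.31 and -0.012. In J558L tumours it read 5.93 and 5.63 at 0 h and 4.71, 6.38 and 4.34 at 24 h (-0.64 ± 0.80, adjusted p = 0.978). In kidney it read 4.41, 5.56 and 4.93, then 5.24, 5.32 and 5.08 (0.25 ± 0.71, adjusted p = 0.947). The 16.113 difference and the J558L tumour response differed by -3.14 ± 1.02 (95% interval -5.27 to -1.02, unadjusted p = 0.00578), which did not pass the correction over all genes (adjusted p = 0.454).

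Serpinb10, known as bomapin and found mainly in blood-forming cells, had group means of 4.38 to 5.77 and exceeded the array median in 1 array. Serpinb6a had group means of 2.75 to 3.28 at its only single-symbol probe set and never exceeded the array median there. Neither was tested, and a dim probe set does not show that the gene was silent. The 3 probe sets shared by Serpinb2 and Serpinb10 were dim too and were not tested. The same held for 1 probe set shared by Serpinb6a and 1110046J04Rik. Its control means were 3.95 to 4.81, and its changes ran from -0.55 in 16.113 tumours to 1.18 in kidney.

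Across the 26 arrays, after each set's mean was taken off, the Pearson r with Serpinb9 was 0.874 for Serpinb6b, 0.535 for Serpinb8, -0.0106 for Serpinb9b and -0.327 for Serpinb2. Serpinb8 and Serpinb6b had an r of 0.753 with each other. These arrays share the set normalization and the IFNγ design. The MCA313 control labelled replicate 1 was the lowest array of its set for Serpinb9, Serpinb6b and Serpinb8 (10.24, 6.67 and 4.59). Its weight in these r values was not tested. The genes most like Serpinb9 over the same 26 arrays were Irgm1, an IFN-inducible GTPase (r = 0.948), Slfn2, a Schlafen family gene (r = 0.947), and Sp140, a nuclear body gene (r = 0.942). Irgm1 rose by 1.16 in kidney (adjusted p = 0.0395) and by 2.09 in 16.113 tumours (adjusted p = 8.92e-05). Unlike Serpinb9, Irgm1 also passed in MCA313 tumours at 24 h and 48 h (adjusted p = 0.0328 and 0.0467). In J558L tumours it did not pass (adjusted p = 0.241). The genes most like Serpinb2 were Fmo2, a flavin monooxygenase (r = 0.83), Spdl1 (r = 0.751) and Ubtd2 (r = 0.749). All of them fell in 16.113 tumours, with changes of -1.74, -1.81 and -1.27 (adjusted p = 0.0124, 0.0107 and 0.00179). The genes most like Serpinb9 and Serpinb2 were picked by correlation over these same arrays. A shared direction follows from that choice and is no separate support.

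The other listed serpins were mostly outside the calls. Of 19 other clade B serpins 7 were tested, and none was called except Serpinb5, known as maspin, which fell by 0.91 ± 0.27 in 16.113 tumours (adjusted p = 0.0405); their median change was -0.12 at 24 h and -0.24 at 48 h in MCA313 tumours, 0.03 in J558L tumours, 0.25 in kidney and -0.26 in 16.113 tumours. Of 25 serpins of other clades 22 were tested, and 2, Serpina3f and Serpina3g, rose in kidney (by 3.87 and 2.60) and in 16.113 tumours (by 4.27 and 1.93). The 5 tested members had a median change of 1.65 at 24 h in MCA313 tumours, 1.47 at 48 h, 1.28 in J558L tumours, 1.08 in kidney and -0.31 in 16.113 tumours, against medians of all genes between -0.033 and 0.011. Over the 28 tested member probe sets the medians were 1.01, -0.07, 1.05, 1.02 and 0.17 in the same order, so the sign differed between both measures at 48 h in MCA313 tumours and in 16.113 tumours. With 5 genes, each gene-level median is a single gene's value. It is that of Serpinb2 at both MCA313 times, Serpinb9 in J558L tumours, Serpinb8 in kidney and Serpinb9b in 16.113 tumours. The Serpinb2 values rest on its brightest probe set, since its 9 probe sets had medians of 0.23 at 24 h and -0.14 at 48 h.

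Of a list of 25 genes for proteases and related proteins, perforin and myeloperoxidase among them, only 7 had a single-symbol probe set. All 7 were tested: Prf1, Gzmm, Elane, Prtn3, Ctse, Casp8 and Mpo. The others, with Gzmb for granzyme B among them, were not measured here. None of the 7 was called in any comparison. Prf1, which encodes perforin, differed by 1.10 ± 0.35 in 16.113 tumours (adjusted p = 0.0629) and by 1.04 in kidney (adjusted p = 0.207), and the list's median was 0.18 and 0.01 there.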

How the data were processed

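Endothelial RNA from 26 samples was amplified and hybridised to Affymetrix arrays. The authors deposited log2 values for each probe set, and these were used as given. The submitters' processing notes name Affymetrix Expression Console and limma; how the arrays were normalized was not given in the sources used here. Exact values recurred between arrays within 4 sets and almost never between them, which is taken as separate normalization. The table held 65535 probe sets. No depth applies to arrays, whose number limits the precision.

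A linear model of 9 group means was fitted to all 26 arrays with limma 3.58.1 in R 4.3.3, and p-values were adjusted by the Benjamini-Hochberg method over all 4386 genes, or 45204 probe sets, at 0.05. The brightest probe set by mean stood for a gene. A gene or probe set was tested if it exceeded the array's 50th percentile in at least 2 arrays. The procedure was tested on simulated data. Named genes are all members, the 3 genes most correlated with each member past the test, and up to 4 called genes per list. Members and lists were chosen with earlier results of these data known.

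Marker lists: endothelial, leukocyte and myeloid, T and NK cells, plasma cell, fibroblast and mural, and kidney epithelium and podocyte. Of these, Sele fell in MCA313 at 48 h, Irf4 rose in both MCA313 comparisons, J558L tumour and 16.113, and Sdc1 fell in 16.113; the fibroblast and mural list had 0 calls among 6 tested genes, and the kidney list had 0 measured genes. Alternatives were other filters, probe set averages, quantile normalization, variance priors, array weights, a replicate block, the compared sets alone and each array left out.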

Additional observations from a re-analysis of the deposited data

Results flagged for a closer look

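Serpinb2 lay on opposite sides of the arrays it was compared with in 2 models, and passed the test in 16.113 only. Every MCA313 array after 24 h of IFNγ lay above every control, and every 16.113 array with competent T cells lay below every array with deficient T cells. Of all genes, 14.1% met the first condition and 5.79% the second. The changes differed by 5.43 on the log2 scale, and this difference was not tested. The MCA313 side rests on the brightest probe set, since the median over all 9 Serpinb2 probe sets was 0.23 there, and with the probe sets averaged the change was 0.31. Among the 5 member and group combinations large enough to check, no array stood far from the others. Smaller groups were not checked in this way, and single arrays stood apart in some. For Serpinb6b the MCA313 controls read 6.67, 9.74 and 9.43, and for Serpinb8 the competent 16.113 arrays read 8.10, 8.73 and 4.38.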

How the results depend on the processing

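Of 695 recomputed member values, 677 stayed on their side of the threshold, 7 lost a call, 11 gained one and 0 called values changed sign; 38 values changed sign in all, each uncalled in full and under the alternative. In 16.113 tumours 2 members passed under each alternative run. At 24 h in MCA313 tumours 0 members passed, against 1 with a gene's probe sets averaged and 0 to 2 with 1 array left out; at 48 h leaving out 1 array gave 0 to 2. In J558L tumours 0 passed, against 2 with probe sets averaged, with array weights and with the compared sets alone. For these the cause was not tested. In kidney 1 passed and 0 did with 1 array left out. Among single probe sets, the 75th percentile filter gave 2 calls in MCA313 at 24 h and 1 in J558L tumours, where 0 passed; leaving out 1 array gave 0 to 1 at each MCA313 time, 1 to 2 in kidney (3 in full) and 3 to 5 in 16.113 (5 in full). Calls over all genes ran from 1 to 123 in MCA313 at 24 h (30 in full), 4 to 136 at 48 h (60), 1 to 127 in J558L tumours (24), 43 to 260 in kidney (139) and 34 to 565 in 16.113 (323).

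Same-numbered arrays of compared groups within a set did not deviate together (14 pairs, some sharing arrays, r from -0.14 to 0.11). Same-numbered J558L tumour and kidney arrays were not compared in this way. The difference between the tumour and kidney responses treated them as independent. With the replicate block, 0 members passed in kidney (Serpinb9 adjusted p = 0.121), and 0 kidney and 1 16.113 probe sets did. Where 1 array of J558L tumour at 0 h was left out, the lone array was assumed to vary like the other groups.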
